A study of Homo sapiens with 4 samples.

Results

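Translation initiation factors are the proteins that bring the small ribosomal subunit to an mRNA, find its start codon and join the large subunit to it. Their genes were taken from the expression table by name, as every row whose symbol starts with EIF, leaving out the EIF2AK kinases and symbols that end in P plus a number. This gave 51 of the 20804 genes listed. Of these, 47 are named as factor genes and 4 as antisense RNAs of factor genes. For short, all 51 are called factor genes in the counts below. The rule on P plus a number removes pseudogenes but also the 3 genes of the eIF4E-binding proteins (EIF4EBP1, EIF4EBP2 and EIF4EBP3), which are described here among the partners of the factors.

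In the scanning pathway, eIF2 carries the initiator tRNA to the small subunit, and eIF2B recharges eIF2 with GTP after each round. The subunits of eIF3 form the largest factor, which bridges the small subunit and the mRNA-bound factors. The cap of the mRNA is bound by eIF4E, which sits with the RNA helicase eIF4A on the scaffold eIF4G. The factors eIF1, eIF1A and eIF5 control start codon choice, eIF5B joins the subunits, and eIF6 keeps free subunits apart. In cancer cells this machinery is known as a target of mTORC1 signalling and of the phosphorylation of eIF2.

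RNA was sequenced from MDA-MB-231, an established line of human triple-negative breast cancer cells. Of the 4 libraries, 2 carry the label of a miR-3662 knockout (KO) and 2 that of the wild type (WT), with no other agent named in either group. The title of the series, however, names CRISPR interference and activation, and its design text speaks of cells sorted by miR-3662 activity, so what KO and WT stand for is uncertain throughout. Whether KO is 1 clone and whether the libraries came from separate cultures is not stated. The p-values thus cover the spread between libraries only, and that spread may be technical. Lower RNA of a gene in bulk cells cannot be told apart from fewer cells that express it.

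The mature microRNA has no value of its own here, so the knockout could not be checked. FPKM values (fragments scaled to transcript length and to the mapped fragments of the library) summed to 528986 and 544650 in the KO libraries and to 504102 and 520527 in the WT libraries. Read depth is unknown. VIM, a mesenchymal marker of this line, was at 1120 to 1321 FPKM over all 4 libraries and CD44 at 104 to 114 FPKM. ESR1 reached at most 0.01 FPKM, and CDH1 at most 0.03. EPCAM was at 0.34 and 0.05 FPKM in KO and at 1.08 and 1.15 FPKM in WT. ERBB2 was at 8.55 to 11.4 FPKM. Of the markers of other cells, PTPRC and COL1A2 were listed at 0 in each library, and PECAM1 was at 0.17 and 0.29 FPKM in KO and at 0.02 and 0.03 FPKM in WT. PGR and DCN were sought by symbol but gave no values, and the part of EPCAM and PECAM1 in the results was not tested.

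The sequences that bear on the comparison are the microRNA, its matches in the factor mRNAs, and the start regions of factor genes that passed the test. The mature microRNA has 24 bases and lies at chr6:134979355-134979378 on the minus strand (RefSeq, GRCh38.p14). Capitals mark its seed, bases 2 to 8, which pairs with the DNA letters TCATTTT in a target.
hsa-miR-3662: gAAAAUGAugaguagugacugaug

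Such a match was sought in the longest 3′ UTR of each gene among the coding transcripts of GENCODE 29 that are linked to a RefSeq mRNA. It was found in 14 of 44 tested factor genes with such a UTR (31.8%) and in 3382 of 10535 tested genes (32.1%). The median UTR had 642 bases in these factor genes and 1234 bases in all tested genes. A longer UTR has more places for a match, so these shares are not like for like. None of the 8 factor genes that passed the test between KO and WT, EIF3CL included, held a match, against 14 of 36 that did not pass. UTR length was not matched here either. The UTRs of EIF3G, EIF3CL, EIF4A3, EIF4G1 and EIF3B had 97, 217, 276, 450 and 554 bases. Those of EIF3J, EIF2S1 and EIF2B2 had 1654, 3076 and 3178 bases. The median log2 difference between KO and WT was -0.051 for the 14 factor genes with a match and -0.24 for the others. The 4 sites below are shown because they lie in mRNAs of helicase factors and of the largest eIF3 subunit. Capitals mark the match, at chr17:7578586-7578592 (plus strand) for EIF4A1, chr7:74195658-74195664 (plus) for EIF4H, chr12:53040917-53040923 (plus) for EIF4B and chr10:119034563-119034569 (minus) for EIF3A, all in 3′ UTRs on GRCh38.
EIF4A1: tggacatcttgTCATTTTttttctttgaat
EIF4H: gcggtgctgcgTCATTTTtcctttgctttc
EIF4B: gaagtgatgagTCATTTTgcaccaggtaat
EIF3A: aatgatagaaaTCATTTTaaacaccttagt

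EIF4E and EIF3M held the most matches among tested factor genes, 5 each, in UTRs of 9344 and 3863 bases. A letter match is a description and shows no binding. The 4 genes printed had log2 differences of -0.27 for EIF4A1, -0.30 for EIF4H, -0.089 for EIF4B and 0.20 for EIF3A, none of which passed.

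Over the 11786 genes that reached 1 FPKM in 2 or more libraries, limma's moderated test on log2(FPKM + 1) called 16.2% higher and 10.8% lower in KO at a Benjamini-Hochberg adjusted p under 0.05, and 27.0% in either direction. Of the 51 factor genes 45 met this filter on low values, among them the antisense RNA EIF3J-AS1. EIF3CL met it only through the WT libraries, where it was higher, so a fall was built into its selection and the counts here leave it out. Of the other 44, 6 (13.6%) fell in KO, 1 (2.27%) rose and 37 did not pass. The 6 that fell were EIF4G1, EIF3J, EIF3B, EIF4A3, EIF2S1 and EIF3G, and the gene that rose was EIF2B2. The median log2 difference was -0.17 over the 44 factor genes and 0.074 over all tested genes. Both KO values lay below both WT values in 25 of the 44 (56.8%, against 28.7% of all tested genes) and above them in 5 (11.4%, against 39.3%). With the libraries scaled by the median of ratios, 14 factor genes fell and 1 rose, against 15.5% lower and 12.0% higher of all tested genes. With values rescaled to the same total (TPM), 11 fell and 1 rose, against 12.5% and 13.2%. All 7 calls passed under both of these scalings, while only that of EIF4G1 passed without each library in turn.

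**Figure D1:**
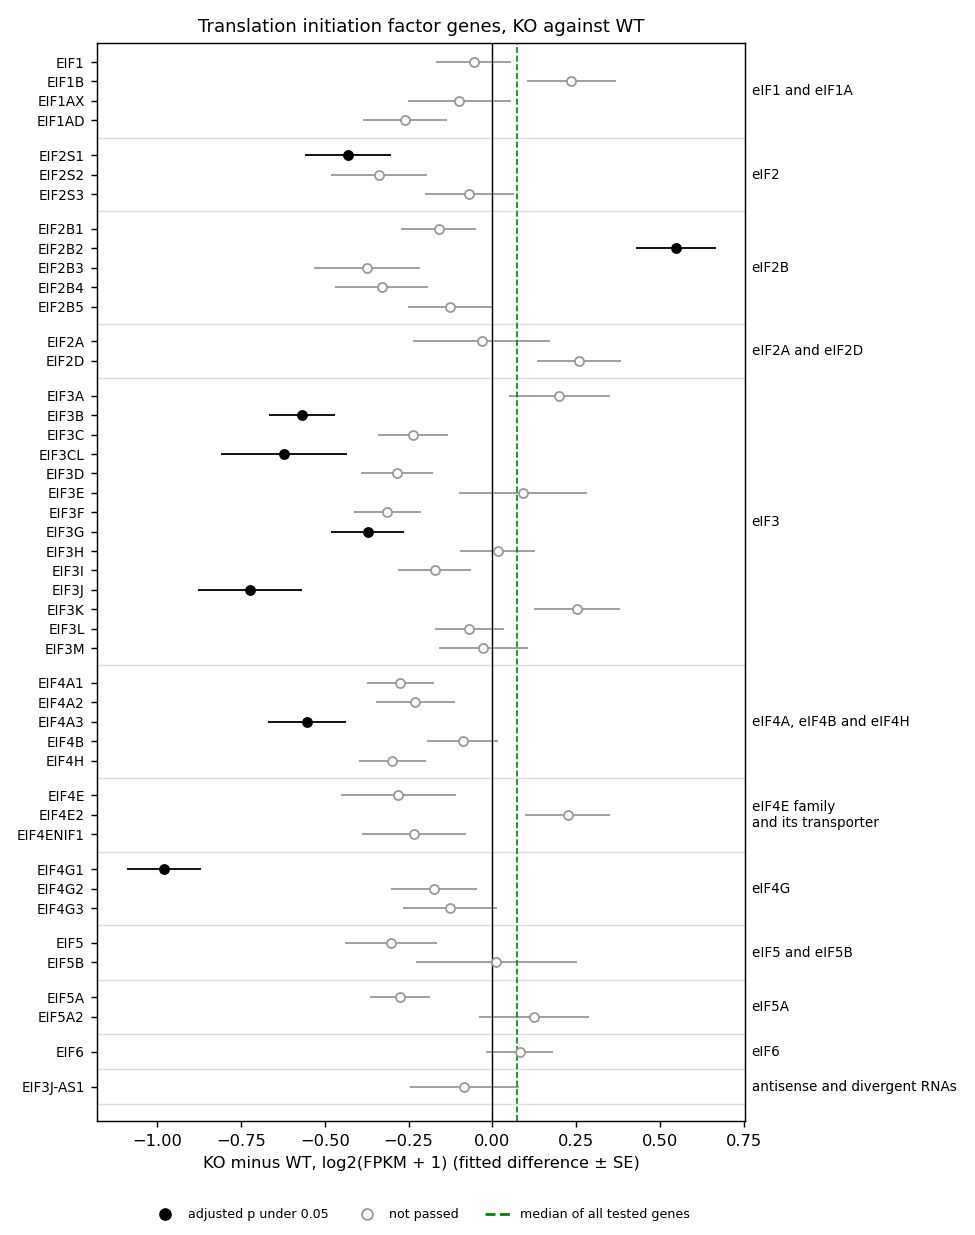
Fitted difference between KO and WT on the log2(FPKM + 1) scale (horizontal axis, bars are ± SE, n = 2 libraries per group) for the 45 factor genes tested, grouped by factor; filled points passed at an adjusted p under 0.05. EIF4G1 lies farthest left at -0.98, EIF2B2 farthest right at 0.55, and most points lie left of the median of all tested genes at 0.074 (dashed).

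The scaffold gene EIF4G1, whose protein holds the cap-binding protein and the helicase together, fell the furthest of the factor genes. It was at 127 and 112 FPKM in the KO libraries, against 236 and 238 FPKM in the WT libraries. Both KO values lay far below both WT values, with means of 119.7 ± 10.6 FPKM in KO and 237 ± 1.23 FPKM in WT (SD, n = 2 each). KO differed from WT by -0.98 ± 0.11 on the log2 scale (SE, adjusted p 0.00201 in limma). This value ranged from -1.07 to -0.89 with each library left out in turn. EIF4G1 lies on chromosome 3 from 184314495 to 184335358 (plus strand, GRCh38, GENCODE 29). It holds the small nucleolar RNA gene SNORD66 on the same strand, and how reads there were counted is not stated. The paralogs did not pass. EIF4G2, which lacks the eIF4E-binding region and serves cap-independent initiation, was at 318 and 311 FPKM in KO and at 398 and 316 FPKM in WT (log2 difference -0.17, adjusted p 0.339 in limma). EIF4G3 was at 8.73 and 8.67 FPKM in KO and at 10.05 and 9.15 FPKM in WT (-0.13, adjusted p 0.527 in limma).

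A ratio of 2 genes within 1 library does not depend on how libraries are scaled. EIF4G2 stood at 2.50 and 2.77 times EIF4G1 in the KO libraries, against 1.69 and 1.33 times in the WT libraries. EIF4G3 stood at 0.0687 and 0.0773 of EIF4G1 in KO and at 0.0426 and 0.0385 in WT. Neither pair of ratios overlapped between the groups, and both ratios were higher in KO, by 0.81 for EIF4G2/EIF4G1 and 0.85 for EIF4G3/EIF4G1 on the log2 scale. Both ratios and the share below rest on the EIF4G1 values, so they are not independent of its fall. The ratios EIF1B/EIF1, EIF4E2/EIF4E, EIF4E3/EIF4E and EIF5A2/EIF5A were also higher in both KO libraries, and no ratio was tested. EIF4G1 made up 28.0% and 26.0% of the summed FPKM of the 3 eIF4G genes in KO, against 36.6% and 42.2% in WT.

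**Figure D2:**
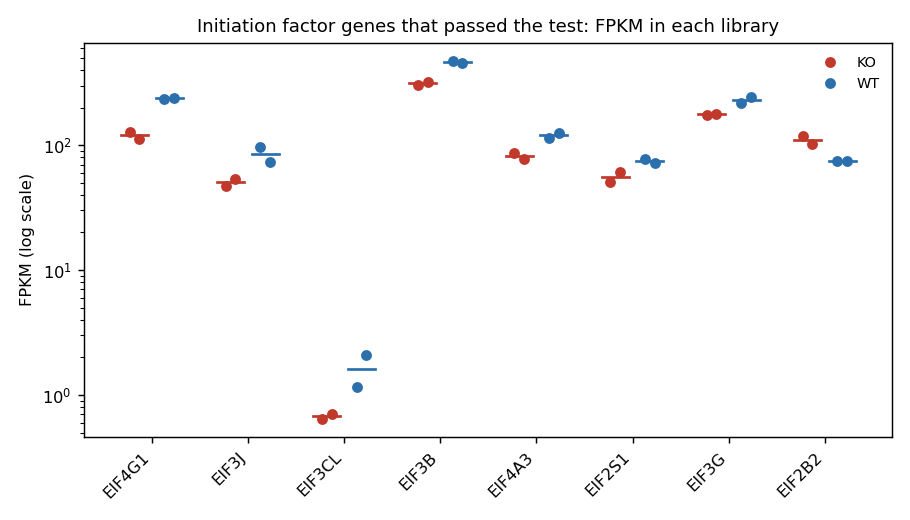
FPKM of the 8 factor genes that passed the test, EIF3CL included (vertical axis, log scale) in each KO and WT library; each point is 1 library and each line a group mean (n = 2 each). The KO points lie below the WT points for 7 genes and above them for EIF2B2 at the right.

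Of the helicase group, EIF4A3 fell in KO. It encodes an eIF4A paralog that works in the exon junction complex on spliced mRNA rather than in scanning. It was at 86.7 and 77.0 FPKM in KO and at 115 and 126 FPKM in WT, so the groups did not overlap. Its log2 difference between KO and WT was -0.55 ± 0.12 (SE, adjusted p 0.0141 in limma). The call was lost without KO replicate 2 (adjusted p 0.0585), WT replicate 1 (0.0558) or WT replicate 2 (0.0931). EIF4A3 lies on chromosome 17 from 80135214 to 80147183 (minus strand) and overlaps no other annotated gene.

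The other 4 genes of this group were all lower in both KO libraries than in both WT libraries, but none passed. Such a placing held for 28.7% of all tested genes. The scanning helicase EIF4A1, the most abundant of them, was at 777 and 871 FPKM in KO and at 1006 and 984 FPKM in WT (log2 difference -0.27 ± 0.10 SE, adjusted p 0.0793 in limma). Its paralog EIF4A2 was at 132 and 152 FPKM in KO and at 158 and 174 FPKM in WT (-0.23). The ratio EIF4A2/EIF4A1 was 0.169 and 0.175 in KO and 0.157 and 0.177 in WT, so these ratios overlapped. EIF4H, which stimulates eIF4A, was at 199 and 206 FPKM in KO and at 248 and 250.4 FPKM in WT (-0.30, adjusted p 0.0595 in limma). EIF4B, with the same role, was at 98.0 and 97.0 FPKM in KO and at 102 and 106 FPKM in WT (-0.089). EIF4A1 and EIF4H passed after scaling by the median of ratios (adjusted p 0.0188 and 0.0181). EIF4A1 shares sequence with a read-through gene (SENP3-EIF4A1), and EIF4A1 and EIF4A2 hold small nucleolar RNA genes. The sources used here do not state how such reads were counted.

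None of the 3 tested genes of the eIF4E family passed. The cap-binding gene EIF4E was at 5.88 and 7.75 FPKM in KO and at 9.08 and 7.82 FPKM in WT (log2 difference -0.28, adjusted p 0.253 in limma). EIF4E2, whose product binds the cap and can repress translation, was the most abundant of the 3. It was at 45.2 and 51.1 FPKM in KO and at 39.0 and 43.1 FPKM in WT (0.22, adjusted p 0.216 in limma). EIF4E2 stood at 7.69 and 6.60 times EIF4E in KO, against 4.30 and 5.51 times in WT, so this ratio was higher in both KO libraries. EIF4ENIF1, which encodes the eIF4E transporter, was at 5.14 and 4.22 FPKM in KO and at 5.78 and 5.54 FPKM in WT (-0.23, adjusted p 0.288). EIF4E3 was below the filter, at 0.65 and 0.76 FPKM in KO and at 0.46 and 0.51 FPKM in WT. EIF4E3 stood at 0.111 and 0.0981 of EIF4E in KO, against 0.0507 and 0.0652 in WT.

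**Figure D3:**
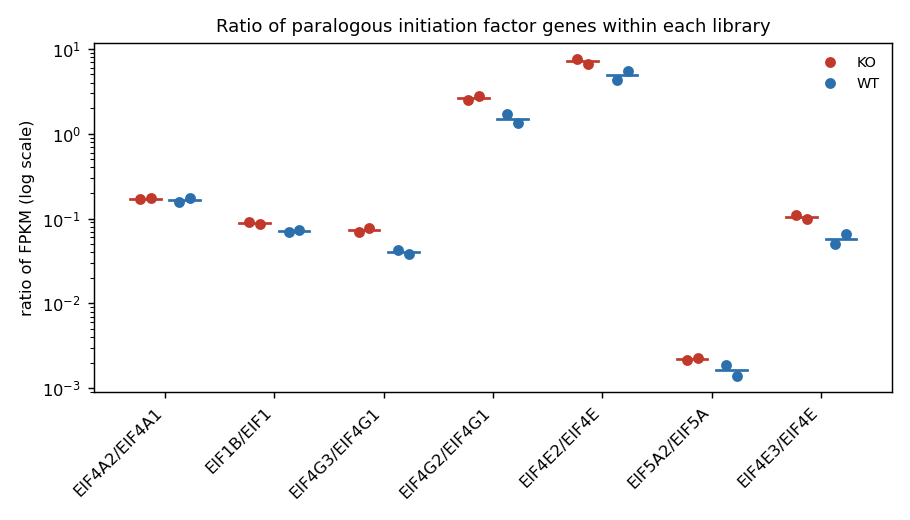
Ratio of the FPKM of paralogous factor genes within each library (vertical axis, log scale); each point is 1 KO or WT library and each line a group mean (n = 2 each). Both KO ratios lie above both WT ratios for each pair (EIF4G2/EIF4G1 at 2.50 and 2.77 against 1.69 and 1.33) except EIF4A2/EIF4A1, whose ratios overlap. The ratios were not tested.

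Of the 13 eIF3 genes tested without EIF3CL, 3 (23.1%) fell in KO and none rose, against 10.8% lower and 16.2% higher of all tested genes. Both KO values lay below both WT values in 8 of them (61.5%, against 28.7% of all tested genes). They lay above both WT values in 1 (7.69%, against 39.3%). EIF3B, which encodes an RNA-binding scaffold subunit, was the most abundant eIF3 gene in each library. It was at 305 and 321 FPKM in KO, against 475 and 454 FPKM in WT. The log2 difference was -0.57 ± 0.098 (SE, adjusted p 0.00742 in limma), and without WT replicate 1 the adjusted p was 0.0606. EIF3B lies on chromosome 7 from 2354086 to 2380745 (plus strand), and its start overlaps SNX8 on the opposite strand.

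EIF3J, the gene of a loosely bound subunit at the decoding centre, was at 47.2 and 53.8 FPKM in KO and at 96.1 and 73.2 FPKM in WT. The groups did not overlap, and the WT libraries lay further apart than the KO libraries. The log2 difference was -0.72 ± 0.15 (SE, adjusted p 0.0142 in limma), with an adjusted p of 0.0618 without KO replicate 1 and 0.0853 without WT replicate 1. EIF3J lies on chromosome 15 from 44537057 to 44563029 (plus strand), with SPG11 overlapping its end on the opposite strand. The RNA named as its antisense, EIF3J-AS1, was at 4.13 and 3.94 FPKM in KO and at 3.79 and 4.94 FPKM in WT, and did not pass (-0.084, adjusted p 0.729 in limma).

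EIF3G, the gene of an RNA-binding subunit that takes part in scanning, was at 175 and 178 FPKM in KO and at 216 and 243 FPKM in WT. Its log2 difference was -0.37 ± 0.11 (SE, adjusted p 0.0395 in limma). The call was lost with any 1 library left out, at adjusted p of 0.0931 and 0.0896 without KO replicate 1 and 2 and 0.0902 and 0.24 without WT replicate 1 and 2. It was also lost in limma without the mean-variance trend (0.0775). EIF3G lies on chromosome 19 from 10115017 to 10119918 (minus strand), and P2RY11 overlaps its end on the opposite strand.

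EIF3CL, a near-identical copy of EIF3C, was at 0.64 and 0.71 FPKM in KO and at 1.16 and 2.07 FPKM in WT (log2 difference -0.62, adjusted p 0.0453 in limma). Reads may have been split between the copies in a way the sources used here do not state. EIF3CL met the filter only through the WT libraries and lost its call without KO replicate 1 or 2 (0.148 and 0.139) or WT replicate 2 (0.185), so its value is uncertain. EIF3CL lies on chromosome 16 from 28379579 to 28403879 (minus strand). EIF3C itself was at 190.2 and 174 FPKM in KO and at 211 and 218 FPKM in WT (-0.24, adjusted p 0.129).

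In the structure of human eIF3, 8 subunits with PCI or MPN domains (eIF3a, eIF3c, eIF3e, eIF3f, eIF3h, eIF3k, eIF3l and eIF3m) form the core, and eIF3b, eIF3d, eIF3g, eIF3i and eIF3j attach around it. Grouped in this way after the values were seen, none of the 8 core genes passed, with a median log2 difference of -0.006 and a range from -0.31 to 0.25. After scaling by the median of ratios EIF3C and EIF3F of the core passed as lower (adjusted p 0.045 and 0.0171 in limma). Of the 5 others 3 fell and all 5 had KO values below the WT values, against 10.8% and 28.7% of all tested genes, and their median was -0.37. EIF3D, a subunit that can itself bind the cap, was at 118 and 109.7 FPKM in KO and at 135 and 143 FPKM in WT (-0.28, adjusted p 0.0879 in limma, and 0.0329 after scaling by the median of ratios). EIF3I was at 136 and 152 FPKM in KO and at 162 FPKM in both WT libraries (-0.17). The difference between the 2 groups of subunits was not tested.

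Among the core genes, EIF3F was at 258 and 248 FPKM in KO and at 307 and 322 FPKM in WT (-0.31, adjusted p 0.0514 in limma). EIF3K was higher in both KO libraries, at 242 and 302 FPKM, against 221 and 234 FPKM in WT (0.25, adjusted p 0.179 in limma). EIF3A, EIF3E, EIF3H and EIF3M overlapped between the groups, with log2 differences of 0.20, 0.091, 0.015 and -0.027. EIF3L was at 132 and 129 FPKM in KO and at 136 and 138 FPKM in WT (-0.069). Because FPKM is per length, subunit levels can be set side by side. The highest of the 13 subunit genes without EIF3CL stood at 6.46 and 5.97 times the lowest in the KO libraries and at 6.54 and 8.29 times in the WT libraries. The lowest gene was EIF3J in both KO libraries and EIF3A in both WT libraries.

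**Figure D4:**
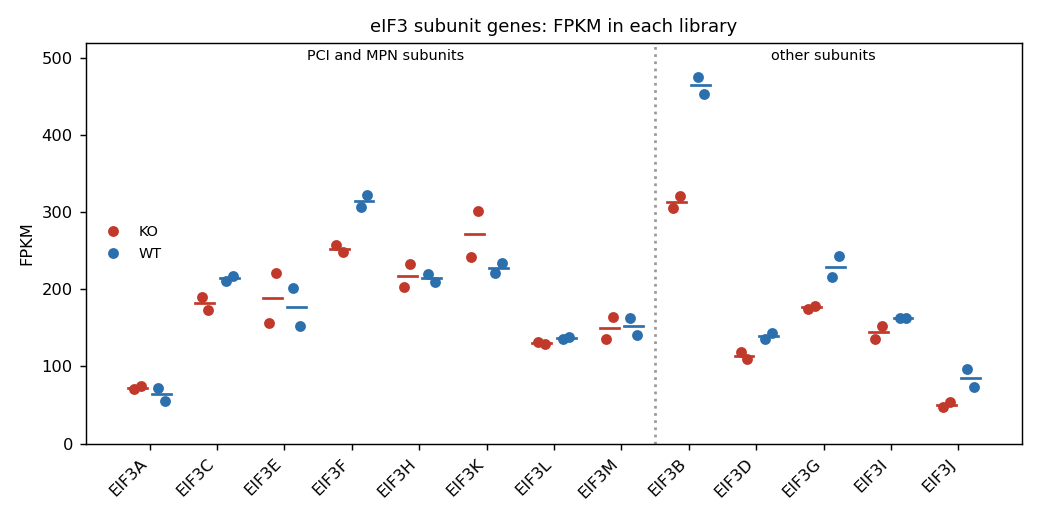
FPKM of the 13 eIF3 subunit genes (vertical axis, linear) in each KO and WT library, with the PCI and MPN subunits left of the dotted line and the others right of it; points are libraries and lines group means (n = 2 each). To the right of the line the KO points lie below the WT points for each gene, with EIF3B at 305 and 321 FPKM in KO and 475 and 454 FPKM in WT.

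For eIF2, the gene of the α subunit, EIF2S1, fell in KO. The α subunit carries the serine that stress kinases phosphorylate. EIF2S1 was at 50.7 and 60.7 FPKM in KO and at 77.7 and 72.6 FPKM in WT, without overlap. The log2 difference was -0.43 ± 0.13 (SE, adjusted p 0.0436 in limma). It missed the threshold without KO replicate 1 (adjusted p 0.146), WT replicate 1 (0.193) or WT replicate 2 (0.118), and in limma without the mean-variance trend (0.0651). EIF2S1 lies on chromosome 14 from 67359997 to 67386516 (plus strand), with ATP6V1D overlapping its start on the opposite strand. The β subunit gene EIF2S2, the most abundant of the 3, was at 73.7 and 94.9 FPKM in KO and at 111 and 101 FPKM in WT (-0.34 ± 0.14, adjusted p 0.116, and 0.0448 after scaling by the median of ratios). The γ subunit gene EIF2S3, which encodes the GTPase, was at 30.4 and 35.8 FPKM in KO and at 35.9 and 33.5 FPKM in WT (-0.070).

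EIF2B2, the gene of the β subunit of the exchange factor eIF2B, rose in KO. It was at 118 and 101 FPKM in KO, against 74.3 and 74.8 FPKM in WT. Both KO values lay above the WT values, which were nearly equal. The log2 difference was 0.55 ± 0.12 (SE, adjusted p 0.0151 in limma), and the call was lost without KO replicate 1 (adjusted p 0.0559), WT replicate 1 (0.0802) or WT replicate 2 (0.0741). EIF2B2 lies on chromosome 14 from 75002911 to 75012366 (plus strand), where 2 annotated genes overlap it on the opposite strand. The sources used here do not state whether counting used strand, so reads of overlapping genes on opposite strands cannot be told apart here or for EIF3B, EIF3J, EIF3G and EIF2S1.

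The other 4 eIF2B genes had log2 differences below 0 and did not pass, from -0.37 for EIF2B3 to -0.13 for EIF2B5. EIF2B5, the catalytic subunit gene, was at 40.9 and 37.0 FPKM in KO and at 40.6 and 44.7 FPKM in WT. EIF2B3 was at 31.7 and 43.0 FPKM in KO and at 49.1 and 47.1 FPKM in WT, and EIF2B4 at 24.0 and 20.8 FPKM in KO and at 26.6 and 30.1 FPKM in WT. EIF2B1, the α subunit gene, was at 63.3 and 69.2 FPKM in KO and at 74.8 and 73.5 FPKM in WT. EIF2B3 alone of these passed after scaling by the median of ratios (adjusted p 0.0497).

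The start regions of 3 of the genes that passed are shown because letters of known promoter motifs differ among them. Each line runs from 160 bases before the annotated start to 10 bases after it (RefSeq, GRCh38.p14). Capitals mark the E-box CACGTG, the letters bound by MYC and MAX, or the motif CCGGAAG, which ETS factors bind. Both motifs were searched on both strands, and no window shown holds both. The windows are chr3:184314446-184314615 (plus strand) for EIF4G1, chr17:80147119-80147288 (minus) for EIF4A3 and chr14:75002761-75002930 (plus) for EIF2B2.
EIF4G1: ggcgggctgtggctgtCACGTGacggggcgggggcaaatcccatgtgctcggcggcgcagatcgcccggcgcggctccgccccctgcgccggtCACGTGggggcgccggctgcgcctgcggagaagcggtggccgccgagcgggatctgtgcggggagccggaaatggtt
EIF4A3: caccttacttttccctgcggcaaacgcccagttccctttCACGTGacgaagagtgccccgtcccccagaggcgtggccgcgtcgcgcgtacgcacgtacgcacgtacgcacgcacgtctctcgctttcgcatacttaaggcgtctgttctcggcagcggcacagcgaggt
EIF2B2: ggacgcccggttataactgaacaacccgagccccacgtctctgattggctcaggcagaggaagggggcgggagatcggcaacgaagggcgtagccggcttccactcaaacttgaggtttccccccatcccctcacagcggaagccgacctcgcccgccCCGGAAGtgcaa

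EIF4G1 held 2 E-boxes, starting 144 and 67 bases before the start, and EIF4A3 held 1, starting 121 bases before it. EIF2B2 held no E-box and an ETS motif that spans the start. These places hold for the RefSeq starts, which differ from the GENCODE starts of these genes given above. The GENCODE start of EIF4G1, at 184314495, lies between its 2 E-boxes. In the full windows of 300 bases, an E-box was found in 10 of the 37 tested factor genes with a promoter in the table (27.0%), against 10.5% of 8847 tested genes and 7.3% of all promoters in the table. It was found in 2 of the 5 such genes that fell (EIF4G1 and EIF4A3, but not EIF3B, EIF3J or EIF2S1) and in 8 of the 31 that did not pass. The median log2 difference was -0.29 for the 10 with an E-box and -0.17 for the others. The ETS motif was found in 9 of the 37 (24.3%), against 20.8% of tested genes and 10.3% of all promoters. It was found in 0 of the 5 that fell, in EIF2B2, the 1 that rose, and in 8 of the 31 that did not pass. The median log2 difference was -0.027 for the 9 with an ETS motif and -0.26 for the others. Neither motif says whether a factor bound there.

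The remaining factor genes did not pass. EIF5A, whose product carries the modified lysine hypusine and helps the ribosome through elongation and termination, was the most abundant factor gene. It was at 1305 and 1318 FPKM in KO, against 1583 and 1594 FPKM in WT, so the groups stood apart with close replicates. The log2 difference was -0.28 ± 0.089 (SE), just short of the threshold at an adjusted p of 0.0549 in limma, and it passed at 0.0128 after scaling by the median of ratios. Its paralog EIF5A2 was at 2.80 and 2.96 FPKM in KO and at 2.97 and 2.19 FPKM in WT, and its ratio to EIF5A was 0.00214 and 0.00225 in KO, against 0.00188 and 0.00137 in WT. EIF6, which keeps free large subunits from joining, was at 524 and 540 FPKM in KO and at 481 and 525 FPKM in WT (0.081 ± 0.099, adjusted p 0.57), where the groups overlapped.

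EIF1, the most abundant gene of its group, was at 374 and 424 FPKM in KO and at 394 and 435 FPKM in WT (-0.056 ± 0.11, adjusted p 0.736 in limma). Its paralog EIF1B was at 33.6 and 36.8 FPKM in KO and at 27.6 and 31.97 FPKM in WT (0.24, adjusted p 0.216). EIF1B stood at 0.0898 and 0.0867 of EIF1 in KO, against 0.0701 and 0.0735 in WT. EIF1 and EIF1B are close in sequence, so reads may have been split between them. EIF1AX overlapped between the groups (-0.099), and EIF1AD was at 19.9 and 19.4 FPKM in KO and at 24.4 and 23.0 FPKM in WT (-0.26, adjusted p 0.157).

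EIF5, which triggers GTP hydrolysis by eIF2, was at 24.1 and 25.5 FPKM in KO and at 33.7 and 28.2 FPKM in WT (-0.30, adjusted p 0.135 in limma). EIF5B, the subunit-joining GTPase, was the most abundant of these by mean, at 37.5 and 29.1 FPKM in KO and at 42.6 and 25.1 FPKM in WT (0.012 ± 0.24, adjusted p 0.977). Both groups of EIF5B values spread widely and overlapped. EIF2A was at 19.03 and 28.1 FPKM in KO and at 26.8 and 20.9 FPKM in WT (-0.032). EIF2D, which acts in reinitiation and ribosome recycling, was the more abundant by mean of these 2, at 25.5 and 25.2 FPKM in KO and 20.4 and 21.8 FPKM in WT (0.26 ± 0.12, adjusted p 0.157). Besides EIF4E3, 5 genes stayed below the filter. EIF5AL1 reached at most 0.29 FPKM, EIF2B5-AS1 at most 0.53, EIF1AX-AS1 at most 0.12, EIF1AY at most 0.12 and EIF1B-AS1 at most 0.02.

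Partners and regulators of the factors were described from a list of 47 genes, of which 45 were tested. The list was chosen with earlier results of these data known, so the shares below only describe it. Of these 45, 9 (20.0%) fell in KO, 3 (6.67%) rose and 33 did not pass, against 10.8% lower and 16.2% higher of all tested genes. The median log2 difference was -0.061. The largest rise was that of PDCD4, an inhibitor that binds eIF4A and keeps it from eIF4G. PDCD4 was at 9.77 and 9.53 FPKM in KO, against 2.80 and 3.96 FPKM in WT. The KO values were above both WT values, with a log2 difference of 1.29 ± 0.17 (SE, adjusted p 0.00335 in limma), and it ranged from 1.10 to 1.49 with each library left out in turn.

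The eIF4E-binding proteins block the meeting of eIF4E and eIF4G until mTORC1 phosphorylates them. EIF4EBP1 was at 97.6 and 123 FPKM in KO and at 130.02 and 158 FPKM in WT (-0.38 ± 0.15, adjusted p 0.0945 in limma, and 0.0372 after scaling by the median of ratios). EIF4EBP2 was at 23.4 FPKM in both KO libraries and at 20.3 and 18.5 FPKM in WT (0.26, adjusted p 0.163). EIF4EBP3 was listed at 0 in each library. In the mTORC1 arm, LARP1, which binds mRNAs of ribosomal proteins and factors, was at 45.2 and 41.1 FPKM in KO and at 62.5 and 58.5 FPKM in WT (-0.48, adjusted p 0.0238). LARP1 lost its call without KO replicate 2 (0.0918), WT replicate 1 (0.131) or WT replicate 2 (0.0807). The S6 kinase gene RPS6KB2 was at 52.5 and 51.6 FPKM in KO and at 37.2 and 37.6 FPKM in WT (0.47, adjusted p 0.0221). Its call was lost without any 1 library (0.0669 to 0.106) and after scaling by the median of ratios (0.0518).

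The poly(A)-binding proteins bind eIF4G and link the tail of the mRNA to its cap. PABPC1 was at 408 and 404 FPKM in KO, against 605 and 511 FPKM in WT (-0.46 ± 0.11, adjusted p 0.0232 in limma). PABPC4 was at 88.0 and 78.2 FPKM in KO and at 118 and 104 FPKM in WT (-0.42, adjusted p 0.041). Both fell without overlap between the groups. PABPC1 lost its call without KO replicate 1 (0.0599), KO replicate 2 (0.0741) or WT replicate 1 (0.166), and PABPC4 without any 1 library (0.0518 to 0.223). Without the mean-variance trend both missed the threshold, at 0.0515 for PABPC1 and 0.0672 for PABPC4.

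Of the genes around eIF2 phosphorylation, ATF4, whose translation rises when eIF2 is phosphorylated, was at 180.4 and 207 FPKM in KO and at 274 and 354 FPKM in WT. It fell by 0.69 on the log2 scale (adjusted p 0.0138 in limma), and missed the threshold without KO replicate 1 (0.0587) or WT replicate 2 (0.0835). PPP1R15A, a subunit of the phosphatase that reverses the phosphorylation, was at 48.1 and 55.0 FPKM in KO and at 53.8 and 56.4 FPKM in WT (-0.098, adjusted p 0.575). None of the 4 eIF2 kinases (EIF2AK1 to EIF2AK4) passed, with log2 differences from -0.086 to 0.11.

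DOHH, the enzyme that completes the hypusine of eIF5A, was at 23.2 and 21.1 FPKM in KO, against 38.8 and 40.0 FPKM in WT. It fell by 0.80 on the log2 scale (SE 0.12, adjusted p 0.00513 in limma), and passed with each library left out in turn, at -0.87 to -0.74. The preceding enzyme, DHPS, was at 37.6 and 39.1 FPKM in KO and at 33.6 and 37.8 FPKM in WT (0.10, adjusted p 0.563).

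The 8 genes listed under elongation include the kinase gene EEF2K. Of these 8 genes 3 fell and none rose, against 10.8% lower and 16.2% higher of all tested genes. EEF2, the translocase, was at 337 and 331 FPKM in KO, against 555 and 569 FPKM in WT (-0.75 ± 0.095, adjusted p 0.00292 in limma), and passed with each library left out. EEF1G was at 1310 and 1237 FPKM in KO and at 1596 and 1621 FPKM in WT (-0.34, adjusted p 0.0321), and EEF1A2 at 20.3 and 15.6 FPKM in KO and 26.7 and 33.0 FPKM in WT (-0.70, adjusted p 0.0215). EEF1G lost its call without KO replicate 2 (0.0961), WT replicate 1 (0.141), WT replicate 2 (0.159) or the mean-variance trend (0.0895), and EEF1A2 without KO replicate 2 (0.104) or WT replicate 2 (0.113). EEF1A1, the tRNA carrier and the most abundant of the list, was at 4467 and 5115 FPKM in KO and at 4013 and 3493 FPKM in WT (0.35, adjusted p 0.0514).

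GSPT1, the release factor eRF3a, was at 26.2 and 24.8 FPKM in KO and at 36.9 and 33.0 FPKM in WT (-0.44, adjusted p 0.0381 in limma). Its call was lost without any 1 library (0.0777 to 0.193). MTIF3, an initiation factor of mitochondrial ribosomes, rose to 14.7 and 17.0 FPKM in KO, against 9.20 and 10.01 FPKM in WT (0.66 ± 0.14, adjusted p 0.0153). The call of MTIF3 was lost without KO replicate 2 (0.0932) or WT replicate 1 (0.0764). Its mitochondrial counterpart MTIF2 was at 20.8 and 23.3 FPKM in KO and at 26.2 and 21.9 FPKM in WT (-0.12). None of the 5 genes of scanning helicases, recycling and reinitiation passed, with a median of -0.16. Of these, MCTS1 was higher in both KO libraries, at 7.07 and 8.06 FPKM, against 5.19 and 5.59 FPKM in WT (0.42, adjusted p 0.0717). ABCE1, which splits ribosomes after termination, was at 16.8 and 21.6 FPKM in KO and at 34.9 and 23.0 FPKM in WT (-0.55, adjusted p 0.0923).

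**Figure D5:**
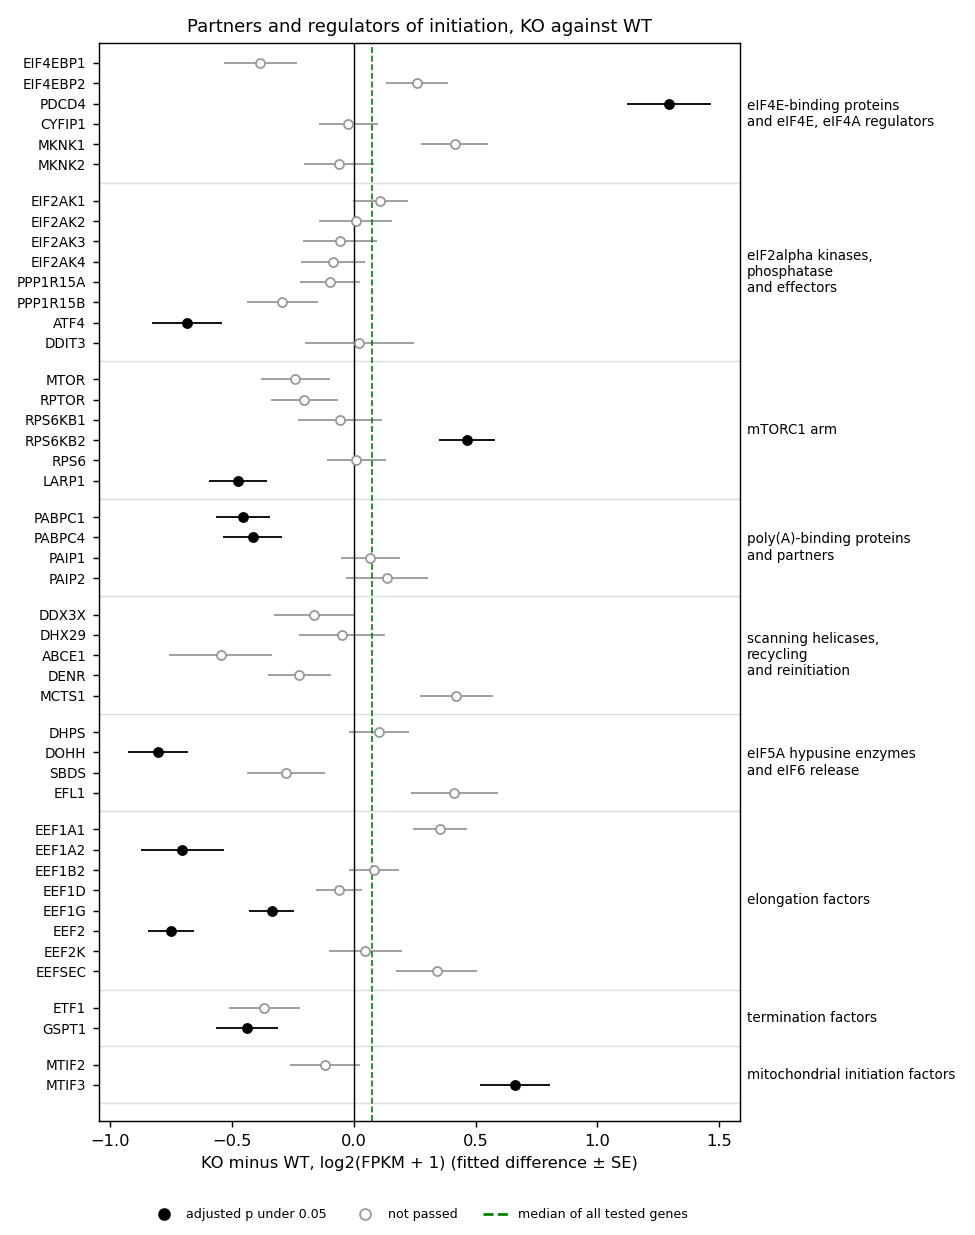
Fitted difference between KO and WT on the log2(FPKM + 1) scale (horizontal axis, bars are ± SE, n = 2 libraries per group) for the 45 partner and regulator genes tested, by role; filled points passed at an adjusted p under 0.05. PDCD4 lies farthest right at 1.29 and DOHH farthest left at -0.80.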

How the data were processed

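The authors deposited FPKM values of each gene for 2 KO and 2 WT libraries, per the file headers. The submitters' processing notes name HISAT, StringTie, Cufflinks and GATK with the build hg38. The sources used here state no role, version or filter for them. Per the labels' protocols, total RNA in Trizol was made into Illumina TruSeq RNA libraries.

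Genes that reached 1 FPKM in 2 or more libraries entered limma 3.58.1 (R 4.3.3) as unscaled log2(FPKM + 1), with mean-variance trend, Benjamini-Hochberg adjustment over all 11786 tested genes and a threshold of 0.05. The pseudocount of 1 understates changes of low genes. The test was checked on simulated data. Log2 differences are KO minus WT. FPKM gives no depth, so no counting error is stated. Python 3.11.15 and pandas 2.3.3 were used for tables. All 51 factor genes were found in the RefSeq gene table. The factor genes and partner list were chosen with earlier results of these data known. Statistics are given in full for genes that passed and the most abundant gene of each factor. Alternatives were other scalings, pseudocount, filters, no trend, a replicate block and leaving out each library.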

Additional observations from a re-analysis of the deposited data

How the results depend on the processing

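Of the 8 factor genes that passed, EIF3CL included, none changed sign under the 12 alternatives tried, while 12 that did not pass did. EIF3CL had 11 alternatives, as the mean filter of 5 FPKM removes it. In each of the 8 the groups did not overlap, so no left-out library or pseudocount could turn a sign. Filters, trend and replicate block leave the log2 difference as it is. Only the other scalings could thus have turned a sign in these 8. The number that fell, EIF3CL included, was 15 after scaling by the median of ratios, 12 as TPM, 0 without a filter on low values and 2 to 6 with each library left out, against 7. Without the mean-variance trend 1204 of all tested genes fell and 1843 rose. The number of factor genes that fell was then 5, and 6 partners fell, against 9. The number that rose was 0 without the filter and 0 to 1 with each library left out, against 1. Without the filter limma called 0 of all 20804 genes in either direction, with 5620 genes and 15 factor genes at an unadjusted p under 0.05. With each library left out, 845 to 1183 genes rose and 509 to 824 fell over all genes. Of the partners 0 rose and 0 fell without the filter, 15 of them at an unadjusted p under 0.05, and 1 to 3 rose and 3 to 5 fell with each library left out. The replicate numbers are shared only as numbers, with a correlation of deviations of -0.177. With the replicate block 6 factor genes fell and 1 rose, with EIF2S1 at an adjusted p of 0.0521 in limma and GSPT1 at 0.0631. Over all tested genes 1108 fell and 1756 rose with this block. With crossed numbers, chosen after seeing the data, 7 factor genes fell and 1 rose. Of the partners 10 then fell and 5 rose, and over all tested genes 1655 fell and 2515 rose. With a pseudocount of 1 in both terms, the EIF4E3/EIF4E ratio was 0.48 higher in KO on the log2 scale, against 0.86. Signs turned after scaling by the median of ratios for EIF3E (-0.018), EIF3H (-0.093), EIF5B (-0.094) and EIF6 (-0.028), and as TPM for EIF3H (-0.052) and EIF5B (-0.054). With each library left out the log2 difference ranged from -0.15 to 0.036 for EIF1, -0.28 to 0.087 for EIF1AX, -0.19 to 0.046 for EIF2S3, -0.30 to 0.24 for EIF2A, -0.0008 to 0.40 for EIF3A, -0.16 to 0.34 for EIF3E, -0.083 to 0.11 for EIF3H, -0.16 to 0.11 for EIF3M, -0.36 to 0.38 for EIF5B, -0.033 to 0.28 for EIF5A2 and -0.24 to 0.072 for EIF3J-AS1. Leaving out a library assumes that the lone library varies like the others. The cause of these changes was not tested.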
